A study of Homo sapiens with 4 samples.

Results

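The PPARA, RXRA, NR2F6 and ESRRA genes encode nuclear receptors of metabolism. They were followed here through every region that the deposited tables list as closest to one of them, which gave 4 of 5326 regions, 1 per gene. The data are chromatin immunoprecipitation with sequencing (ChIP-seq), in which an antibody recovers DNA bound by a protein and the recovered DNA is sequenced. The antibodies were against HNF4A, a nuclear receptor transcription factor of liver cells, or were nonspecific IgG, which gives the background. All 4 libraries came from HCCLM3, an established human hepatocellular carcinoma cell line, and the groups were HNF4A at high glucose, HNF4A at low glucose, IgG at high glucose and IgG at low glucose, with 1 library in each.

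The labels mention stable lines made with a lentiviral overexpression vector carrying a CMV promoter, but not which gene was overexpressed or in which library. They give one growth medium, of high glucose, for all 4 libraries, and the sources used here do not say what medium or how much time the low glucose culture had. How the regions were selected is likewise not stated. If reads in these libraries selected them, part of any excess over IgG would come with the selection.

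Nuclear receptors are transcription factors, most of which change their activity when a small lipid-soluble ligand binds. PPARA senses fatty acids and drives their oxidation in the liver, and it binds DNA as a heterodimer with RXRA, the retinoid X receptor that also partners many other receptors of the liver. NR2F6 is an orphan receptor of the COUP-TF family, known mostly as a repressor. ESRRA, the estrogen-related receptor alpha, is an orphan receptor that works with the coactivator PPARGC1A on genes of mitochondrial energy metabolism. HNF4A binds as a homodimer to direct repeats of a short core motif related to those of PPARA and RXRA, and the comparisons ask how much HNF4A signal over IgG lay next to these genes and whether it differed between glucose levels.

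Coordinates of the regions are on hg19. Since a start of 0 occurs, the files appear to number bases from 0, and each start is printed here with 1 added. The PPARA region was chr22:46591369-46592171, of 803 bp. The RXRA region was chr9:137227458-137228340, of 883 bp. The NR2F6 region was chr19:17356513-17358149, of 1637 bp. The ESRRA region was chr11:64071382-64074961, of 3580 bp. The ESRRA region was among the longest of the tables, since 1.18% of all regions were longer, against a median length of 1030 bp. The regions of PPARA and RXRA were shorter than that median, and none of the 5326 regions overlapped another. The gene names are the authors' closest genes, and where each region lies within or beside its gene was not analysed here.

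Bases of the regions are not printed, because the sequence tables used here are on another build. RefSeq promoters of build GRCh38.p14, from 250 bases before to 50 after a gene start, matched 3 of the 4 genes: RXRA and PPARA with 2 starts each and ESRRA with 1. Those of RXRA are shown because this gene had the largest HNF4A over IgG ratio of the 4, and that of ESRRA because its region held the most reads. Whether an hg19 region covers any of them was not tested. All are written 5′ to 3′ on the plus strand, and no base is in capitals because none of the letters searched was found.
RXRA, first start (chr9:134326205-134326504): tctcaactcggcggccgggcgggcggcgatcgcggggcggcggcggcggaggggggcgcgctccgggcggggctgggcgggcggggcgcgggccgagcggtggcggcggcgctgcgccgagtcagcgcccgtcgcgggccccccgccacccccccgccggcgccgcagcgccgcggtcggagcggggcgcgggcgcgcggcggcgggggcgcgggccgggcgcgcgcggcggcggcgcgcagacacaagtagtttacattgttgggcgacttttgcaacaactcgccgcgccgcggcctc
RXRA, second start (chr9:134379045-134379344): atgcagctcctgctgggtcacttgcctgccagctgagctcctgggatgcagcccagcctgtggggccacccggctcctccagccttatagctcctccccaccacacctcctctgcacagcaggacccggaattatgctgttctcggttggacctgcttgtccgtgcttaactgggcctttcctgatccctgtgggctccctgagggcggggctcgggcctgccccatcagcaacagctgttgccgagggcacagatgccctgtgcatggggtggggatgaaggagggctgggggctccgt
ESRRA (chr11:64305274-64305573): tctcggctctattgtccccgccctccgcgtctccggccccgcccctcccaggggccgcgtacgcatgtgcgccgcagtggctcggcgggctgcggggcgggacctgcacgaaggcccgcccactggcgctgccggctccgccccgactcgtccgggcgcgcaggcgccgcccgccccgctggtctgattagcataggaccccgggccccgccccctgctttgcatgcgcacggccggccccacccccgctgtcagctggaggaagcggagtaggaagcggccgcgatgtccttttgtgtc

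The first RXRA promoter was 84.0% G and C and held 65 CG dinucleotides, whereas the second was 64.7% G and C and held 8. The ESRRA promoter was 75.0% G and C with 39 CG dinucleotides. The PPARA promoters, which are not printed, were 85.7% and 86.7% G and C, above 99.8% and 99.9% of all 35116 promoters in the table. The search covered both strands for CAAAGTCCA and CAAAGTTCA, cores of the HNF4 type of site, and for the receptor core motif AGGTCA, alone or as a direct repeat with 1 base between, which contains the single core motif. Of the 5 promoters of these genes, 0 held any of them. Among all promoters, CAAAGTCCA was in 0.384%, CAAAGTTCA in 0.296%, AGGTCA in 13.8% and the direct repeat in 0.0228%, so most promoters of any gene lack them in this window.

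PPARA, the ligand-bound fatty acid sensor, had the region with the fewest HNF4A reads of the 4. It held 29 HNF4A reads and 7 IgG reads at high glucose. At low glucose it held 17 HNF4A reads and 10 IgG reads. The HNF4A library at high glucose stood highest, and the exact 95% interval of its count, 19.4 to 41.6 reads, did not overlap that of IgG at high glucose, 2.81 to 14.4. The intervals of both low glucose libraries overlapped each other. These intervals reflect counting alone: reads copied by PCR were not marked by molecular identifiers and may repeat a molecule, and 1 library per group leaves every difference below without a check by replicates.

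RXRA, the shared heterodimer partner, held 41 HNF4A reads and 19 IgG reads at high glucose. At low glucose it held 42 HNF4A reads and 6 IgG reads. HNF4A reads were thus nearly equal at both glucose levels, whereas the IgG count at low glucose was the lowest of the 16 counts of these genes. NR2F6, the orphan repressor, held 60 HNF4A and 25 IgG reads at high glucose. It held 49 HNF4A and 22 IgG reads at low glucose, so both antibodies gave similar numbers at both glucose levels. ESRRA, with the longest region, held 168 HNF4A and 81 IgG reads at high glucose. It held 118 HNF4A and 62 IgG reads at low glucose, and both antibodies had more reads at high glucose.

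**Figure D1:**
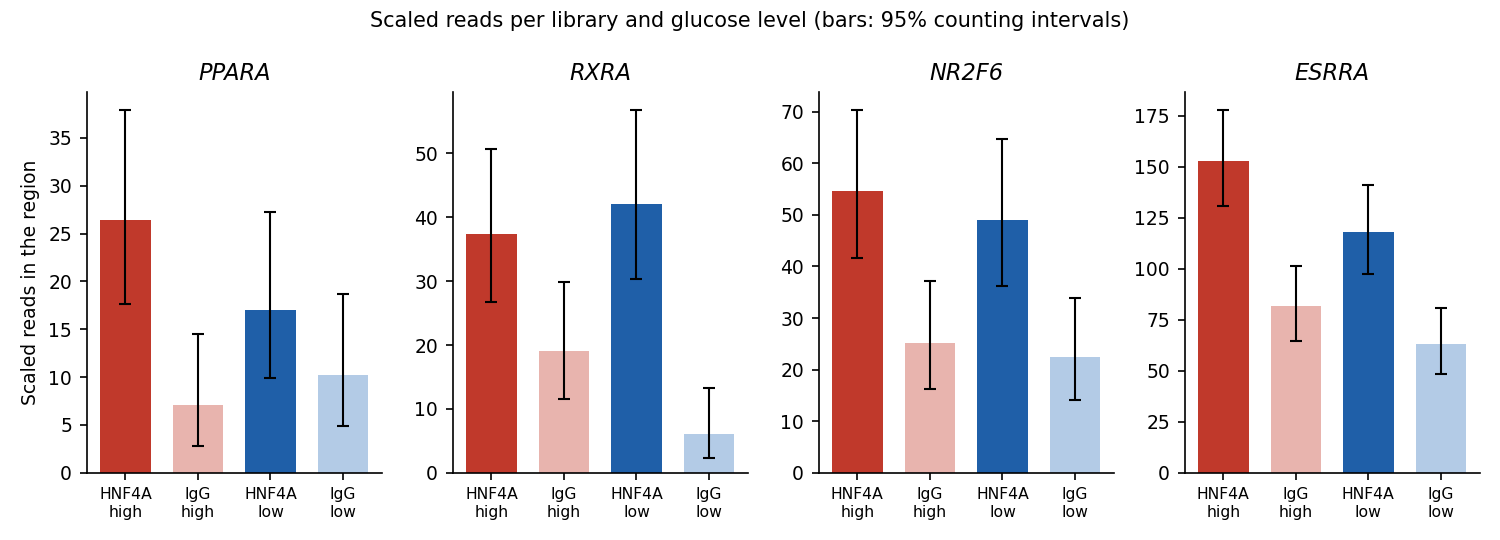
Reads in each gene's region, divided by the authors' relative library size (y axis, own scale per gene), in the HNF4A and IgG libraries at high and low glucose; bars are single libraries and error bars exact 95% counting intervals. HNF4A stands above IgG with intervals that do not overlap for NR2F6 and ESRRA at both glucose levels, for RXRA at low glucose and for PPARA at high glucose, with 26.4 scaled HNF4A reads against 7.05 for IgG.

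At high glucose, HNF4A was above IgG at all 4 genes, with PPARA the highest, where 84.2% of all regions had a ratio above IgG. Ratios are of reads divided by the authors' relative library sizes, on the log2 scale, each followed by its exact 95% interval. PPARA stood at 1.90 (0.68 to 3.34), which is 3.74-fold. NR2F6 stood at 1.12 (0.42 to 1.85), or 2.17-fold. RXRA stood at 0.96 (0.15 to 1.83), or 1.95-fold. ESRRA stood at 0.91 (0.52 to 1.31), or 1.87-fold. The interval lay above 0 for 4 of 4 genes, where it did so for 55.2% of all regions. PPARA and NR2F6 were at least 2-fold above IgG, 2 of 4 genes, where 41.6% of all regions were. The median of the 4 was 1.04, against 0.79 over all regions, and PPARA exceeded 84.8% of all regions while ESRRA exceeded 54.6%. In HNF4A reads alone, however, the PPARA region exceeded 16.4% of all regions at high glucose, and in IgG reads 7.75%. Set against the regions 0.5 to 2 times as long, PPARA exceeded 80.8% of 4061, NR2F6 65.1% of 3725, RXRA 50.6% of 4283 and ESRRA 77.9% of 775.

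Among the 4 genes the ratios at high glucose could not be told apart by their counts. The interval of the difference included 0 in 6 of 6 pairs, among them PPARA minus NR2F6 at 0.79 (-0.67 to 2.40) and PPARA minus RXRA at 0.94 (-0.60 to 2.61). These intervals are wide, and they allow a PPARA excess of several fold as well as none. The p-values of the 4 genes in the authors' deposited table lay between 0.205 for ESRRA and 0.454 for RXRA, so 0 of 4 were under 0.05, where 4.98% of all regions were. The lowest FDR of the 4 in the authors' deposited table was 0.870, also at ESRRA.

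At low glucose, RXRA took the first place and PPARA the last, and all 4 genes were again above IgG, as were 91.5% of all regions. RXRA stood at 2.78 (1.54 to 4.31), a 6.87-fold excess of HNF4A over IgG, and exceeded 96.0% of all regions. NR2F6 stood at 1.13 (0.38 to 1.93). ESRRA stood at 0.90 (0.45 to 1.37). PPARA stood at 0.74 (-0.47 to 2.03), and its interval alone of the 4 included 0. The interval lay above 0 for 3 of 4 genes, where it did so for 56.2% of all regions, and 2 of 4, RXRA and NR2F6, were at least 2-fold above IgG, where 46.8% of all regions were. Neither share sets the genes apart from the tables as a whole. The median of the 4 was 1.02, against 0.94 over all regions. Compared with regions of 0.5 to 2 times its length, RXRA exceeded 95.2%, NR2F6 63.2%, ESRRA 74.3% and PPARA 32.0%.

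RXRA differed from each of the other genes at low glucose beyond counting error. Its log2 ratio exceeded that of PPARA, with PPARA minus RXRA at -2.04 (-3.98 to -0.17). RXRA minus ESRRA was 1.88 (0.53 to 3.48) and RXRA minus NR2F6 was 1.65 (0.13 to 3.36). Of the 6 pairs, these 3 had an interval without 0. RXRA had a p-value of 0.0379 and an FDR of 0.820 at low glucose in the authors' deposited table. A p-value under 0.05 was found for 3.04% of all regions. That FDR of 0.820 was the lowest of all regions at low glucose, and NR2F6 and ESRRA had the same one. The other 3 genes had p-values of 0.211 for ESRRA, 0.277 for NR2F6 and 0.650 for PPARA in the authors' deposited table.

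Because the regions differ in length, levels were ordered by scaled reads per kb. For HNF4A at high glucose ESRRA and RXRA led at 42.7 and 42.3 scaled reads per kb, followed by NR2F6 at 33.4 and PPARA at 32.9. The interval of the ratio included 0 on the log2 scale for each pair in that order. For HNF4A at low glucose RXRA led at 47.6 scaled reads per kb, followed by ESRRA at 33.0, NR2F6 at 29.9 and PPARA at 21.2. Neighbours in this order did not differ beyond counting error, but RXRA exceeded NR2F6 by 0.67 (0.04 to 1.29) on the log2 scale, and PPARA over RXRA was -1.17 (-2.07 to -0.32).

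For the IgG background at high glucose the order was ESRRA at 22.8 scaled reads per kb, RXRA at 21.7, NR2F6 at 15.4 and PPARA at 8.78. The difference between ESRRA and PPARA alone exceeded counting error, with PPARA over ESRRA at -1.38 (-2.74 to -0.27) on the log2 scale. At low glucose IgG stood at 17.6 scaled reads per kb for ESRRA, 13.7 for NR2F6, 12.7 for PPARA and 6.92 for RXRA, where RXRA over ESRRA was -1.35 (-2.85 to -0.15). PPARA therefore combined the lowest IgG density of the 4 with its highest ratio at high glucose, and RXRA did so at low glucose. The RXRA region exceeded 85.6% of all regions in HNF4A density at low glucose but 8.66% in IgG density. At high glucose it exceeded 52.0% in HNF4A density and 40.2% in IgG density. The PPARA region exceeded 17.8% of all regions in HNF4A density and 8.11% in IgG density at high glucose. At low glucose those shares were 8.17% and 29.5%.

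**Figure D2:**
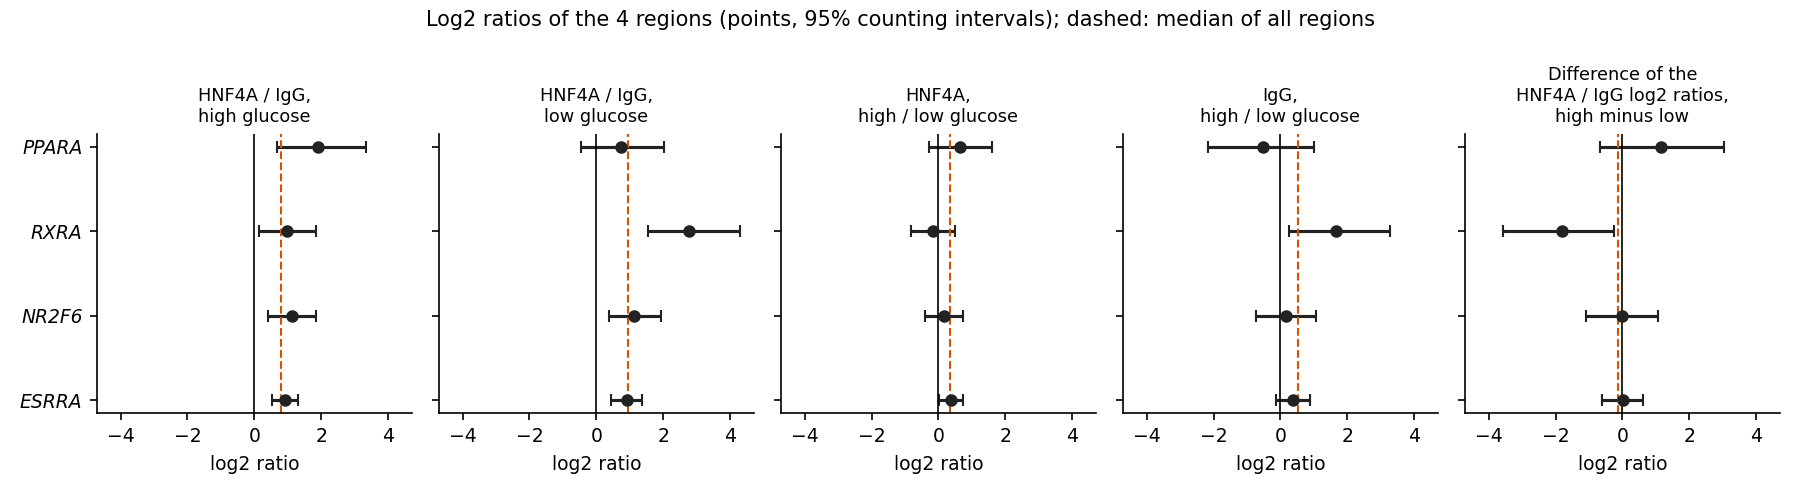
Log2 ratios of scaled reads (x axis) for the 4 genes (rows) in 5 comparisons (panels), with exact 95% counting intervals; the dashed line is the median of all 5326 regions. RXRA stands at 2.78 over IgG at low glucose and at 0.96 at high glucose, PPARA at 0.74 and 1.90 in that order, and NR2F6 and ESRRA lie at nearly the same ratio at both glucose levels.

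Between the HNF4A libraries, PPARA stood at 0.63 (-0.28 to 1.59) for high over low glucose, ESRRA at 0.37 (0.03 to 0.73), NR2F6 at 0.16 (-0.41 to 0.73) and RXRA at -0.17 (-0.83 to 0.49). The interval was above 0 for 1 gene, ESRRA, where it was so for 25.8% of all regions, and 0 of 4 genes differed by 2-fold, where 6.78% of all regions were at least 2-fold higher and 0.713% at least 2-fold lower. With IgG subtracted from each HNF4A level, PPARA stood at 1.5, past 2-fold, and RXRA at -0.98. No interval was computed after subtraction, and PPARA there rested on 17 HNF4A and 10 IgG reads at low glucose. All regions had a median of 0.36, and relative to that median ESRRA stood at 0.02, NR2F6 at -0.20, RXRA at -0.53 and PPARA at 0.28. RXRA was in the lowest part of the distribution, exceeding 10.1% of all regions. None of the 6 pairs of genes differed beyond counting error. In the authors' deposited table the lowest p-value of the 4 was 0.272, at PPARA, with an FDR of 0.914. That FDR was also the lowest of all regions in this comparison.

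The IgG libraries differed at RXRA. IgG at high over low glucose stood at 1.65 (0.27 to 3.26) for RXRA, 0.37 (-0.13 to 0.87) for ESRRA, 0.17 (-0.72 to 1.06) for NR2F6 and -0.53 (-2.16 to 1.01) for PPARA. RXRA was the 1 gene with an interval above 0, where 26.2% of all regions had one, and the 1 gene at least 2-fold higher, where 19.4% of all regions were. It exceeded 95.1% of all regions in this background comparison, PPARA exceeded 7.23%, and the median of all regions was 0.51. HNF4A and IgG thus stood on opposite sides of their medians over all regions for RXRA, and likewise, the other way round, for PPARA.

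For RXRA the HNF4A over IgG ratio itself was the smaller one at high glucose. The difference of log2 ratios, high minus low glucose, was -1.82 (-3.56 to -0.25) for RXRA, and 1 of 4 genes therefore had an interval below 0, where 7.42% of all regions had one. For PPARA it was 1.17 (-0.68 to 3.05), over 2-fold in size, where 8.49% of all regions were at least 2-fold higher, but within counting error. NR2F6 stood at -0.01 (-1.09 to 1.06) and ESRRA at 0.00 (-0.61 to 0.62). For ESRRA the counts leave room for about a 1.5-fold difference either way, and for NR2F6 for about 2-fold. By construction the RXRA difference is its HNF4A log2 ratio of high over low glucose, -0.17, less that of IgG, 1.65. Most of it thus lay in the IgG reads, 19 at high and 6 at low glucose, while HNF4A reads were 41 and 42. What set the IgG counts apart was not tested.

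**Figure D3:**
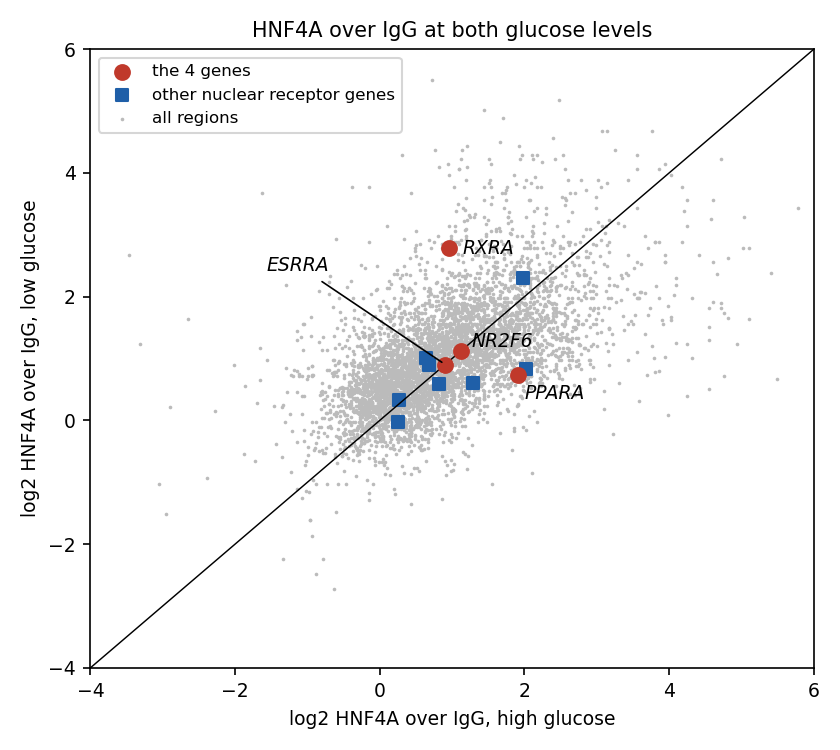
Log2 HNF4A over IgG at high glucose (x axis) and low glucose (y axis) for all 5326 regions (grey), the 4 genes (red circles) and the leading regions of 8 other nuclear receptor genes (blue squares); the line marks equal ratios. RXRA lies above the line and PPARA below it, while NR2F6 and ESRRA lie on it.

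The nearest other region to any of the 4 lay 71.1 kb away, and the regions on either side are named for their position only. Those next to RXRA had similar ratios at both glucose levels. The next regions to that of RXRA lay 425 kb before it, closest to VAV2, and 795 kb after it, closest to OLFM1. VAV2 had HNF4A over IgG ratios of 0.88 (0.22 to 1.56) at high glucose and 0.82 (-0.14 to 1.84) at low glucose. OLFM1 stood at 1.82 (0.89 to 2.87) and 1.35 (0.25 to 2.57) in that order. Around PPARA, the region closest to MIRLET7BHG, 123 kb before, had a ratio of 0.67 (-0.14 to 1.52) at high glucose and of 2.01 (0.94 to 3.25) at low glucose. That order is the reverse of that of PPARA, and the region of TTC38, 71.1 kb after, stood at 1.15 (0.37 to 1.98) and 1.01 (0.20 to 1.86).

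NR2F6 lay between regions closest to F2RL3, 359 kb before, and FCHO1, 519 kb after. Both stood higher over IgG than NR2F6 at high glucose, at 1.59 (0.22 to 3.20) and 1.61 (0.43 to 2.96), and at low glucose at 2.18 (0.75 to 3.93) and 1.48 (0.49 to 2.56), from at most 34 HNF4A reads each. ESRRA lay between MACROD1, 137 kb before, with ratios of 0.41 (-0.16 to 0.99) at high glucose and 0.73 (0.04 to 1.45) at low glucose, and NRXN2, 313 kb after, with 1.24 (0.49 to 2.04) and 1.65 (0.59 to 2.84). By chromosome, the median ratio at high and low glucose was 1.27 and 1.64 over the 67 regions of chromosome 22, so PPARA stood above it at high and below it at low glucose. It was 0.69 and 0.97 over 256 regions of chromosome 9, 0.60 and 0.82 over 361 regions of chromosome 19, and 0.71 and 1.02 over 299 regions of chromosome 11.

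The regions whose 4 levels were most like each gene's were found by Euclidean distance over the log2 scaled reads of the 4 libraries, among regions 0.5 to 2 times as long. For PPARA they were closest to TRIM24, OXA1L and CHRNA9, at distances of 0.28 to 0.35. TRIM24 held 30 HNF4A and 7 IgG reads at high glucose, and 16 and 12 at low glucose. For RXRA they were TSPAN1, STARD4 and PLXNA2, at 0.36 to 0.40, and TSPAN1 held 46 HNF4A and 21 IgG reads at high glucose, and 39 and 5 at low glucose. For NR2F6 they were HOXA-AS2, RHBG and MON1A, at 0.19 to 0.22, and for ESRRA they included NAPRT, at 0.23, and SRSF2, at 0.28.

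Of the 44 other genes of the human nuclear receptor family, 8 had a region, with 10 regions in all, and 36 had none in the tables. A gene with several regions is represented by the one with the highest mean level. All 8 were above IgG at high glucose and 7 of 8 at low glucose, where 84.2% and 91.5% of all regions were. The interval was above 0 for 5 of 8 and 3 of 8, where it was so for 55.2% and 56.2% of all regions. Their median log2 ratios at high and low glucose were 0.75 and 0.72, against 1.04 and 1.02 for the 4 genes and 0.79 and 0.94 for all regions.

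NR1I2, the pregnane X receptor and a partner of RXRA, had the highest ratio of the family at high glucose, at 2.02 (1.01 to 3.18), and 0.83 (-0.10 to 1.81) at low glucose. PPARG, the adipocyte relative of PPARA, stood at 1.98 (1.12 to 2.93) at high glucose. It was the highest of the 8 at low glucose, at 2.30 (1.30 to 3.44). NR1D1, a repressor of the circadian clock, stood at 1.29 (0.60 to 2.03) and 0.61 (-0.12 to 1.37) at high and low glucose. NR2C1, an orphan receptor, stood at 0.81 (0.33 to 1.31) and 0.58 (-0.02 to 1.20), and NR1D2, the paralog of NR1D1, at 0.68 (0.16 to 1.22) and 0.89 (0.19 to 1.62). HNF4A's own gene stood at 0.64 (-0.11 to 1.41) and 1.02 (0.14 to 1.94). RARG, a retinoic acid receptor that also pairs with RXRA, stood at 0.26 (-0.26 to 0.79) and 0.33 (-0.27 to 0.94). NR3C1, the glucocorticoid receptor, was lowest, at 0.25 (-0.76 to 1.28) and -0.03 (-1.45 to 1.39). The difference between glucose levels had an interval that included 0 in each of the 8, the largest being NR1I2 at 1.19 (-0.26 to 2.68), with IgG reads of 10 at high and 16 at low glucose.

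**Figure D4:**
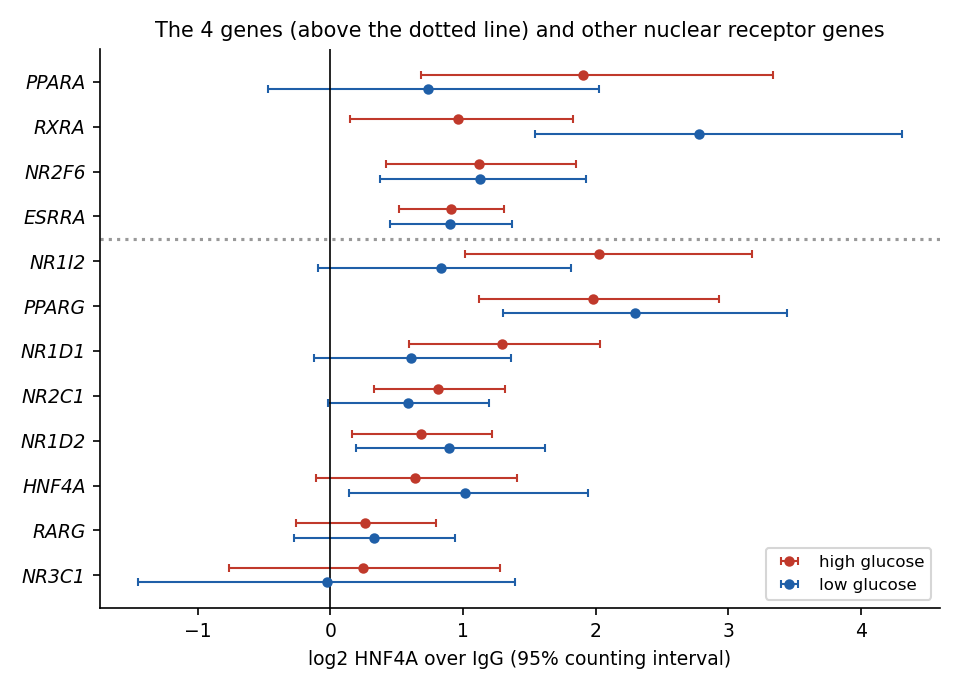
Log2 HNF4A over IgG (x axis) at high glucose (red) and low glucose (blue) for the 4 genes, above the dotted line, and for the leading regions of 8 other nuclear receptor genes; bars are exact 95% counting intervals from 1 library each. RXRA at low glucose stands highest, at 2.78, and NR3C1 lowest, at -0.03.

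Coregulators carry the effect of a receptor to chromatin, and 4 of 12 listed had a region. NRIP1, a corepressor of several receptors, held 18 HNF4A reads against a listed 1 IgG read at high glucose, and 16 against a listed 1 at low glucose. Since no listed value lay below 1 read, that 1 may stand for 0, and the ratios of 4.02 (1.36 to 9.40) and 3.97 (1.29 to 9.36) are wide. The coactivator NCOA3 stood at 1.36 (0.37 to 2.44) and 0.59 (-0.41 to 1.63) at high and low glucose, and its relative NCOA2 at 0.77 and 0.76. PPARGC1A, the coactivator of ESRRA and PPARA, had no region.

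Of 25 known target genes of PPARA, 8 had a region, and all 8 were above IgG at both glucose levels, where 84.2% and 91.5% of all regions were. At high glucose 6 of 8 were at least 2-fold above IgG, where 41.6% of all regions were. At low glucose 7 of 8 were, where 46.8% of all regions were, and the medians were 2.03 and 1.66 in that order. The list was chosen with earlier results of these data known, so these shares are no test of the target genes. Low glucose ratios of ACSL5 and CPT1A rested on 3 and 2 IgG reads. ACSL5, which activates long-chain fatty acids, led at high glucose at 2.42 (1.62 to 3.32), ahead of the transporter CD36 and of CPT1A, which imports fatty acids into mitochondria, both at 2.14. ACADM, a dehydrogenase of medium-chain fatty acid oxidation, had ratios of 2.06 (0.63 to 3.81) at high glucose and 2.88 (0.78 to 6.05) at low glucose, from 5 and 2 IgG reads. CREB3L3, a liver transcription factor of fasting, stood at 2.01 (1.05 to 3.10) and 1.78 (0.42 to 3.38). Lower at high glucose were HADHB at 1.09 (0.63 to 1.56), PDK4 at 0.64 (0.02 to 1.27) and SLC27A4 at 0.35 (-0.25 to 0.97). The ratio at high glucose was above that at low glucose in 2 of the 8, as in 41.7% of all regions, and the IgG level was higher at high glucose in all 8, as in 77.9% of all regions.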

How the data were processed

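The authors deposited 3 tables of comparisons over the same 5326 regions. Per the file headers, each gives log2 levels of 2 sides, a log2 fold, a p-value, an FDR and the closest gene. The submitters' processing notes name build hg19 and, with no settings, HOMER, DiffBind, MACS, Bowtie 1.1.2 and bcl2fastq. From the deposited values, each log2 level, taken out of the log, counted a whole number of equal steps in its library (within 0.01) for 100% of values. This gave read counts, which for HNF4A were the same in both tables that hold each library, and relative library sizes of 1.10 (HNF4A, high glucose), 1 (HNF4A, low), 0.993 (IgG, high) and 0.982 (IgG, low). Total depth is not given, and over all regions the libraries held 402237, 295460, 249744 and 198683 reads in that order.

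Ratios carry exact 95% intervals (Clopper-Pearson for 2 counts, the conditional odds ratio for 4), computed with Python 3.11.15 and scipy 1.17.1 and checked on simulated reads. They cover counting error between libraries, not conditions. With 1 library per group no test of conditions was made, and no count model was fitted. Per the file headers, the p-value and FDR printed are the authors' own. By rule, the text names every region of the 4 genes, the 4 highest and 4 lowest other nuclear receptor genes by ratio at high glucose, up to 4 genes of each other list, and the 3 most similar regions per gene. Not every gene under this rule is reported here. CREB3L3, HADHB, PDK4, SLC27A4 and the neighbouring regions were added after their values were seen. The members and lists were chosen with earlier results of these data known.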

Additional observations from a re-analysis of the deposited data

Results flagged for a closer look

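The RXRA ratio of HNF4A to IgG was not alike at high and low glucose, and the gap was larger than the counting error of the 4 libraries, with a difference of log2 ratios, high minus low, of -1.82 (-3.56 to -0.25). The region held 41 HNF4A and 19 IgG reads at high glucose, and 42 HNF4A and 6 IgG reads at low glucose. Most of the gap lay in IgG, at 1.65 (0.27 to 3.26) for high over low glucose, against -0.17 (-0.83 to 0.49) for HNF4A. An interval below 0 was found in 7.42% of all regions, and the difference was not tested over replicates, since each group has 1 library.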

How the results depend on the processing

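The counts of genes at least 2-fold apart depended on scaling and threshold. At high glucose 2 of 4 were at least 2-fold above IgG, but 4 without scaling, 1 when centred on the all-region median and 1 when scaled by the reads in all regions, an alternative chosen after seeing the data. At low glucose the 2 genes became 1 under centring and 1 under that scaling. A 1.5-fold rule gave 4 at high glucose, 4 at low glucose and 1 between the HNF4A libraries, where the main count was 0. Subtracting IgG also gave 1 between the HNF4A libraries, PPARA at 1.5. RXRA stood there at -0.98, outside the interval of its ratio without subtraction. For IgG at high over low glucose, 1 became 2 under centring. The authors' unadjusted p under 0.05 was met by 0 genes at high and 1 at low glucose, and their FDR under 0.05 by 0 at both. Of 143 values of single regions recomputed, 134 stayed within their own interval, 0 called values reversed, and 9 values of any size changed sign. The RXRA difference was -1.70 without scaling and -1.67 after centring. After centring, NR2F6 stood at 0.33 at high and 0.19 at low glucose, outside its interval at both. The ESRRA ratio to IgG was then 0.12 at high and -0.04 at low glucose, RXRA stood at 0.17 at high glucose and PPARA at -0.20 at low glucose. Summing a gene's regions changed nothing, since each gene had 1 region. Joining on any overlap could change nothing, so the main values were carried over for it. All 5326 regions had identical coordinates in the 3 comparisons, and none overlapped another. A minimum of 20 summed reads could likewise only keep or drop a value. All 3 settings are counted within the 143 and the 134, so the 134 overstates how stable the values were. No paired analysis was possible because each group has 1 library and the labels carry no replicate numbers. Low reads limit PPARA, with 7 and 10 IgG reads, and RXRA, with 6 at low glucose.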
